A study of Bos taurus with 12 samples.

Results

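The genes of the ubiquitin system described here are 156 members of the ubiquitin-activating (UBA), ubiquitin-conjugating (UBE2), TRIM, RNF, HERC, F-box (FBXO, FBXL, FBXW), USP and OTU families measured in cultured bovine chromaffin cells. They were chosen by gene symbol among 9155 named genes on the array. UBA7, HERC5, TRIM25, USP18 and UBE2L6, enzymes tied to the ubiquitin-like modifier ISG15, were left out by the same rule. Each gene is represented by its brightest probe set, and all 156 were tested, with no filter on low values.

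Chromaffin cells make up most of the adrenal medulla and release catecholamines. The cultured cells fall into 4 groups: 24 h of interleukin-6 (IL6, 10 nM), 24 h of human interferon alpha (IFNα, 1 nM), 6 h of histamine (10 µM), and no treatment, for which no time is given in the labels. Total RNA was hybridised to 12 single-colour arrays, 3 per group, and no genetic change or further agent is named for any group. By the submitters' account the triplicates are technical repeats, so a p-value here speaks of the spread between arrays alone.

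Ubiquitin is attached to proteins by a relay of enzymes. An E1 enzyme activates it, an E2 enzyme carries it, and an E3 ligase selects the target. RING ligases, which include the TRIM and many RNF proteins, bring the loaded E2 to the target, HECT ligases such as the HERC proteins take over the ubiquitin first, and F-box proteins are the target-binding subunits of the SCF ligases. Deubiquitinases of the USP and OTU families remove or trim the chains. Several TRIM and HERC genes are known as interferon-induced antiviral genes.

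The values are log2 expression values, and every array had the same mean (6.79). Of the markers checked, 8 of 9 measured chromaffin cell markers had untreated means above the upper quartile of every array, and none of 8 adrenal cortex, 8 endothelial or 8 leukocyte markers did, but 2 of 8 fibroblast markers (DCN and ACTA2) and 1 of 3 Schwann cell markers (S100B) did too. The summed level of the cortex markers (log2) was 9.09 to 9.14 on IL6 arrays, 8.92 to 9.02 on IFNα arrays, 10.27 to 10.34 on histamine arrays and 9.70 to 9.71 on untreated arrays, and that of the leukocyte markers was 10.15 to 10.38, 9.20 to 9.35, 9.58 to 9.67 and 9.33 to 9.39 on the same groups in that order. The fibroblast sum was 13.39 on each histamine array and 13.04 to 13.19 on IFNα arrays, against 13.20 to 13.27 on untreated arrays. On IL6, IFNα, histamine and untreated arrays respectively, the Schwann sum was 10.36 to 10.40, 9.64 to 9.68, 10.20 to 10.23 and 10.09 to 10.13. The endothelial sum was 8.78 to 8.97, 8.75 to 8.81, 8.88 to 9.07 and 9.14 to 9.19 in the same order. Limma called 3 of the cortex markers lower after IL6, 5 lower after IFNα and 2 higher after histamine. The leukocyte markers were split after IL6: CD14 and CORO1A were called higher and ITGB2 lower (log2 changes 1.03, 1.70 and -0.95). The part of all these markers in the results below was not tested. In bulk RNA, fewer cells of a type and less RNA per cell cannot be told apart. IL6 repeats 2 and 3 and IFNα repeat 3 stood apart by raised hypoxia genes: the mean of 12 such genes relative to untreated cells was 0.94 and 1.42 on these IL6 arrays and 1.08 on this IFNα array, against 0.14 on IL6 repeat 1 and -0.01 on each of IFNα repeats 1 and 2. On histamine arrays it was 0.29 to 0.37. Where leaving out these 3 hypoxia-marked arrays ended a call, the value without them is given. So it is where a described change of a member of at least 0.25 on the log2 scale moved by over 1.5 times. For smaller changes the value without them is given for some genes alone.

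At an adjusted p under 0.05, a moderated F test (limma) over the groups picked out 102 of the 156 genes (65.4%), against 49.1% of all 24016 probe sets tested and 60.5% of the 9155 named genes by their brightest probe sets. A gene is called below when its adjusted p, over all probe sets, is under 0.05 and its fold is at least 1.5 (0.58 on the log2 scale). Of the 156 genes, 17 were called after at least 1 treatment, and 1 of them, TRIM34, after 2 treatments. Over all 24016 probe sets 2365 were called after at least 1 treatment and 353 after 2 or more. All 4 E1 genes and all 26 USP genes, by their brightest probe sets, were uncalled in every comparison, as were 21251 of the 24016 probe sets.

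**Figure D1:**
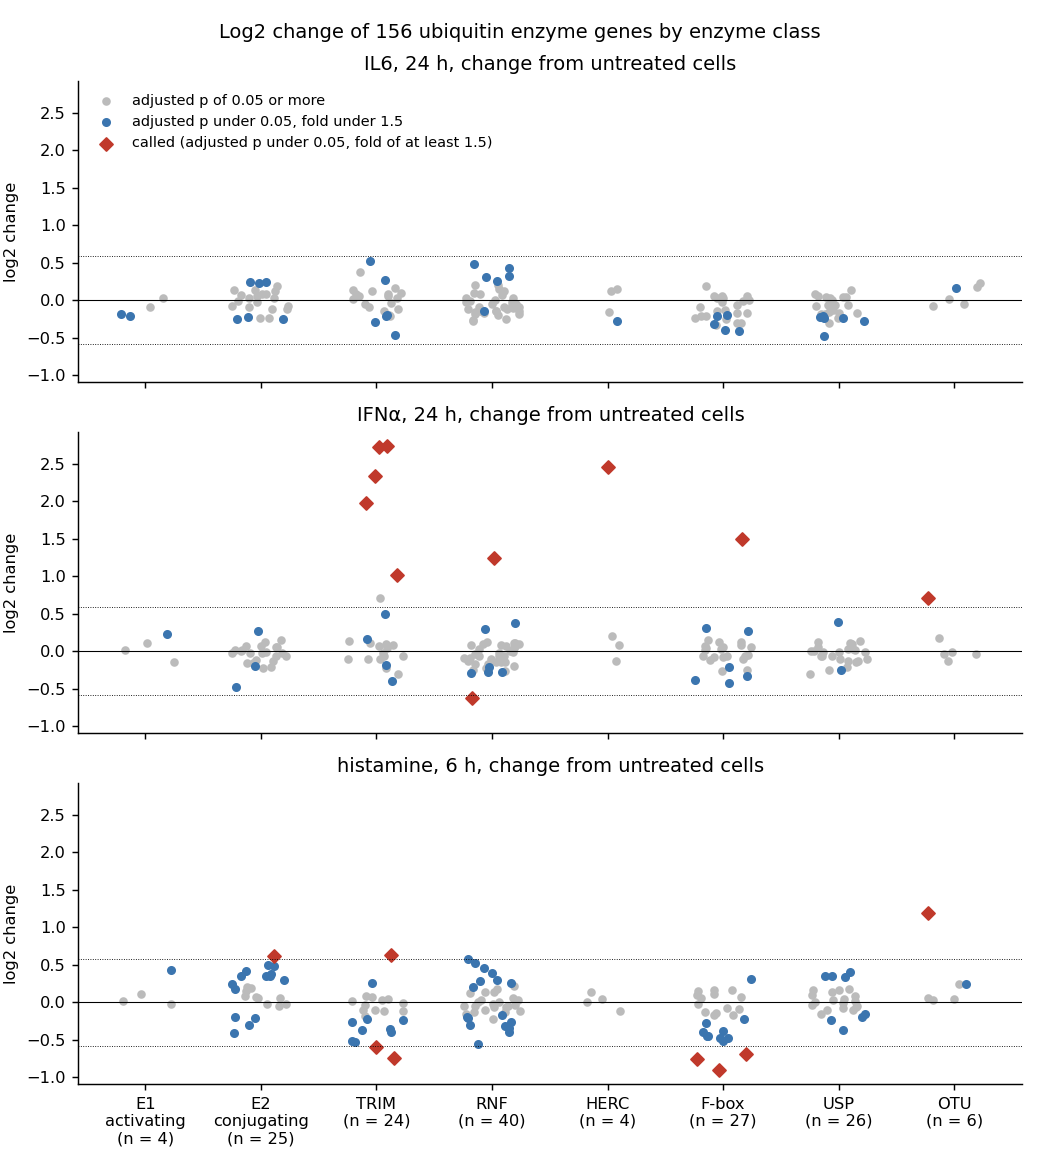
Log2 change from untreated cells of the 156 genes after each treatment (vertical axis), by enzyme class (horizontal axis), 1 point per gene, with dotted lines at a 1.5-fold change. Diamonds mark called genes: none after IL6, 10 after IFNα, of which 5 are TRIM genes, and 8 after histamine.

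The comparison of IFNα with untreated cells asks which ubiquitin genes beyond the ISG15 enzymes respond to a type I interferon. IFNα raised 8 ligase or F-box genes and a deubiquitinase gene, by 1.63-fold to 6.68-fold: 9 genes rose and 1 fell (limma), or 10 of 156, against 3.36% of all probe sets called in this comparison (2.18% higher, 1.18% lower). The median change of the 156 genes was -0.02, the same as that of all probe sets (-0.02). Changes stayed within 0.25 on the log2 scale for 125 of the 156 genes (80.1%; 83.7% of all probe sets). The set comprised 5 of 24 TRIM genes, HERC6, RNF19B, FBXO33 and OTUD4, and RNF144B was the gene that fell.

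Among the TRIM ligases, TRIM21, a cytosolic receptor for antibody-coated pathogens, read 8.85, 9.0 and 8.77 on the IFNα arrays, against 6.04, 6.19 and 6.17 on the untreated arrays. It rose 6.68-fold (log2 change 2.74, SE 0.08; limma, adjusted p = 2.11e-12). TRIM34 read 9.69, 9.74 and 9.49 with IFNα, against 7.00, 6.92 and 6.81 untreated, a rise of 6.63-fold (log2 change 2.73, SE 0.08). In both genes the IFNα and untreated arrays were separated by a wide gap. TRIM5, whose primate protein restricts retroviruses by binding their capsids, read 11.55, 11.57 and 11.40 with IFNα, against 9.29, 9.12 and 9.10 untreated, and rose 5.05-fold (log2 change 2.34, SE 0.09). TRIM38, a regulator of innate immune signalling, read 9.74, 9.74 and 9.77 with IFNα, against 7.75, 7.76 and 7.80 untreated, and rose 3.94-fold (log2 change 1.98, SE 0.06). The spread of TRIM38 within each of these groups was the narrowest of the 5 TRIM genes. TRIM56, an antiviral RING ligase, read 6.83, 6.68 and 6.74 with IFNα, against 5.81, 5.69 and 5.69 untreated, and rose 2.03-fold (log2 change 1.02, SE 0.08).

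TRIM5, TRIM34 and TRIM6 lie close together in the RefSeq cattle gene table (assembly ARS-UCD2.0), with 1 other gene between TRIM5 and TRIM34 and 1 between TRIM34 and TRIM6. TRIM6, which makes unanchored ubiquitin chains, read 5.92, 5.78 and 5.76 with IFNα, against 6.04, 5.79 and 5.80 untreated, a log2 change of -0.06 that was not called. The genes are paralogs, and cross-hybridisation between their probes was not tested. TRIM68 rose less than the fold minimum (log2 change 0.50, SE 0.07; limma, adjusted p = 7.55e-05), and its IFNα arrays, at 8.38, 8.34 and 8.39, lay above its untreated arrays, at 7.93, 7.78 and 7.89. TRIM36 moved by 0.72 on the log2 scale without a call (SE 0.26; limma, adjusted p = 0.0733). It read 5.58, 5.59 and 6.66 on the IFNα arrays, against 5.35, 5.10 and 5.23 on the untreated arrays, and 5.12, 5.58 and 6.10 on the IL6 arrays. Its high arrays were thus among those with raised hypoxia genes, and leaving them out gave 0.36 after IFNα. It was called, with a log2 change of 0.90 or 0.89, without IFNα repeat 1 or 2, and at 0.72 without IL6 repeat 1 or 3 or with the repeat number as a block (limma, adjusted p = 0.0179).

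HERC6, a HECT ligase that attaches ISG15 in the mouse, read 6.29, 6.10 and 6.23 with IFNα, against 3.74, 3.74 and 3.78 untreated. Its untreated mean of 3.75 ± 0.02 (SD, n = 3) lay under every array's lower quartile (5.02 to 5.11), where arrays respond little, so its fold is read as at least 5.48 (log2 change 2.45, SE 0.07). The other HERC genes, HERC2, HERC3 and HERC4, moved by -0.13, 0.21 and 0.08 on the log2 scale, with no call. RNF19B, a RING-between-RING ligase of cytotoxic lymphocytes, read 9.60, 9.79 and 9.56 with IFNα, against 8.55, 8.37 and 8.28 untreated, and rose 2.38-fold (log2 change 1.25, SE 0.11). FBXO33, an F-box protein, read 9.72, 9.82 and 9.83 with IFNα, against 8.32, 8.41 and 8.16 untreated, and rose 2.82-fold (log2 change 1.49, SE 0.07). No array of these groups overlapped for either gene, and the other FBXO33 probe set was called too, with a log2 change of 1.68. FBXO33 was the called member of 27 F-box genes in this comparison.

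OTUD4, a deubiquitinase, was the called OTU gene: it read 10.36, 10.32 and 10.22 with IFNα, against 9.64, 9.55 and 9.59 untreated, and rose 1.63-fold (log2 change 0.71, SE 0.08). Its other probe set was also called (log2 change 0.66). RNF144B, a RING-between-RING ligase known as a p53 target, read 8.92, 8.77 and 8.57 with IFNα, against 9.48, 9.33 and 9.33 untreated. It fell by 0.63 on the log2 scale (SE 0.08; limma, adjusted p = 7.13e-05), and its other probe sets had -0.60 and -0.49, of which the first was called. The RNF144B call sat close to the fold minimum: the log2 change was -0.58 without untreated repeat 1, -0.54 without IFNα repeat 3 and -0.54 with the 3 hypoxia-marked arrays left out, each below the minimum. It also fell short under cyclic loess (-0.58), array weights (-0.57) and the mean of its probe sets (-0.57). With the hypoxia-marked arrays left out the 9 rises were called too, with log2 changes of 2.79 for TRIM21, 2.81 for TRIM34 and 2.44 for HERC6.

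**Figure D2:**
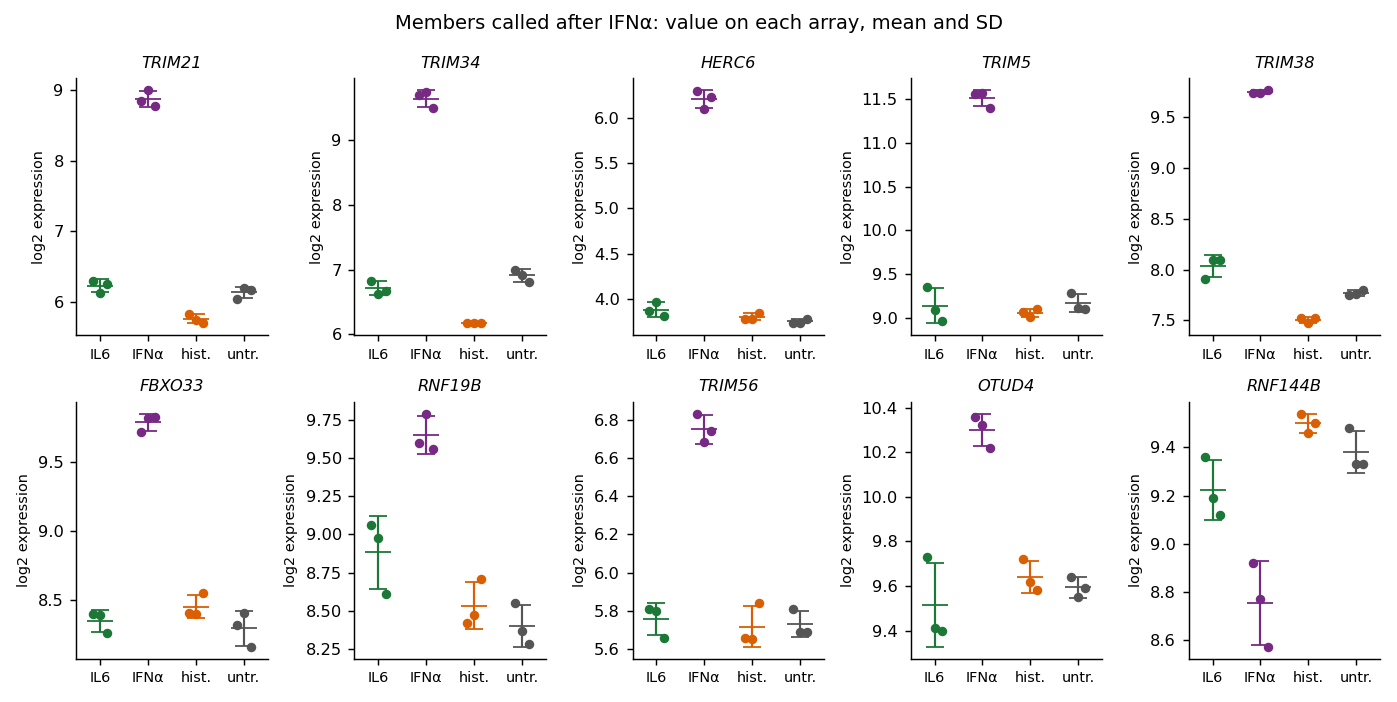
Log2 expression on each array (points, vertical axis) of the 10 genes called after IFNα, by treatment group (horizontal axis: IL6, IFNα, histamine, untreated), with mean and SD of 3 arrays. The IFNα arrays lie above all untreated arrays in 9 genes and below them in RNF144B.

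Not all genes of these families that were listed as interferon-induced were called after IFNα. Of 19 listed genes 11 were measured, and 7 of them were called higher and none lower. The list was chosen with earlier results of these data known, so this share is not independent of them. Of all probe sets 2.18% were called higher and 1.18% lower. The others were RNF135, the ligase of the RNA sensor RIG-I (log2 change 0.29; limma, adjusted p = 0.00782), FBXO6 (-0.25, or -0.10 with the hypoxia-marked arrays left out), the deubiquitinase USP15 (0.06) and UBA3, the catalytic E1 subunit for NEDD8 (0.11). Of these RNF135 rose below the fold minimum, with 7.70, 7.75 and 7.62 on the IFNα arrays, against 7.43, 7.40 and 7.36 on the untreated arrays. RNF31, the catalytic subunit of the linear ubiquitin ligase, rose below the minimum (log2 change 0.38, SE 0.06; limma, adjusted p = 0.000631), with 7.80, 7.74 and 7.73 on the IFNα arrays, against 7.36, 7.40 and 7.38 on the untreated arrays. RBCK1, another subunit of that ligase and by its symbol not a member, rose 1.53-fold (log2 change 0.62). Its partner SHARPIN had -0.14 and OTULIN, the deubiquitinase of linear chains, had -0.04. Of the 25 E2 genes none was called after IFNα by limma at a fold of 1.5, although 8 had an unadjusted p under 0.05, as did 8 of the 26 USP genes (28.1% of all probe sets had).

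At an adjusted p under 0.05 with no fold minimum, 18 members were higher and 14 lower after IFNα, 32 in all, against 16.7% of all probe sets (6.74% higher, 9.99% lower) and 22.1% of the named genes. The split moved with the scaling, to 27 higher and 10 lower after cyclic loess. Ligase genes lower at this threshold included FBXO9 (-0.42), TRIM2 (-0.40) and FBXL5 (-0.38). Dimmer probe sets had -0.30 for FBXO9 and -0.11 and -0.27 for TRIM2. FBXL5 read 10.54 on IFNα repeat 3, against 10.91 and 10.94 on IFNα repeats 1 and 2 and 11.15 to 11.21 on the untreated arrays. With the hypoxia-marked arrays left out FBXL5 had -0.25.

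IL6 called no member. Limma gave 0 of 156 calls, against 2.39% of all probe sets (1.44% higher, 0.949% lower). Of the 156, 64 had an unadjusted p under 0.05, against 31% of all probe sets, and 33 an adjusted p under 0.05, against 17.4% (6.68% higher, 10.7% lower). Over the named genes by their brightest probe sets these shares were 35.3% and 21.3%, and 33 of 156 is no larger a share. Of the 33, 11 were higher and 22 lower. The split was 16 higher and 15 lower with each array centred on its median, 16 and 17 after cyclic loess, and 14 and 22 after quantile normalization. The largest change in either direction was 0.53, and 132 of the 156 genes (84.6%) stayed within 0.25 on the log2 scale, as did 82.7% of all probe sets.

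The largest rise after IL6 was that of TRIM6, with 6.40, 6.32 and 6.50 on the IL6 arrays, against 6.04, 5.79 and 5.80 on the untreated arrays (log2 change 0.53, SE 0.09; limma, adjusted p = 0.000643). RNF19B read 9.06, 8.98 and 8.61 with IL6, against 8.55, 8.37 and 8.28 untreated (log2 change 0.48, SE 0.11; limma, adjusted p = 0.00883). The arrays of both genes were all higher with IL6, but TRIM6 was below the fold minimum with all arrays, and its log2 change was 0.61, and called, without untreated repeat 1. RNF19B was called without IL6 repeat 3 (log2 change 0.62), and with the 3 hypoxia-marked arrays left out it had 0.66, also called, with IL6 repeat 1 as the lone IL6 array and its spread taken from the other groups. RNF181, a small RING ligase, read 8.78, 8.61 and 8.67 with IL6, against 8.22, 8.31 and 8.22 untreated (log2 change 0.44, SE 0.06; limma, adjusted p = 0.000179).

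The lower genes after IL6 were led by deubiquitinase USP11, which acts in DNA repair, with 11.66, 11.48 and 11.27 on the IL6 arrays, against 12.01, 11.93 and 11.91 on the untreated arrays (log2 change -0.48, SE 0.07; limma, adjusted p = 0.000371). With the 3 hypoxia-marked arrays left out it had -0.29. TRIM45, a RING protein that restrains MAP kinase signalling, read 5.84, 5.73 and 5.87 with IL6, against 6.28, 6.19 and 6.34 untreated (log2 change -0.46, SE 0.08; limma, adjusted p = 0.000907). FBXL5, the iron-sensing F-box protein that targets the iron regulatory proteins, read 10.94, 10.79 and 10.58 with IL6, against 11.15, 11.17 and 11.21 untreated (log2 change -0.41, SE 0.10; limma, adjusted p = 0.00912). USP11 and FBXL5 were lowest on IL6 repeat 3, the array with the highest hypoxia genes, and FBXL5 had a log2 change of -0.24 without the 3 arrays named above. The median of the 156 genes relative to untreated cells was 0.00 on IL6 repeat 1, -0.06 on IL6 repeat 2 and -0.10 on IL6 repeat 3.

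**Figure D3:**
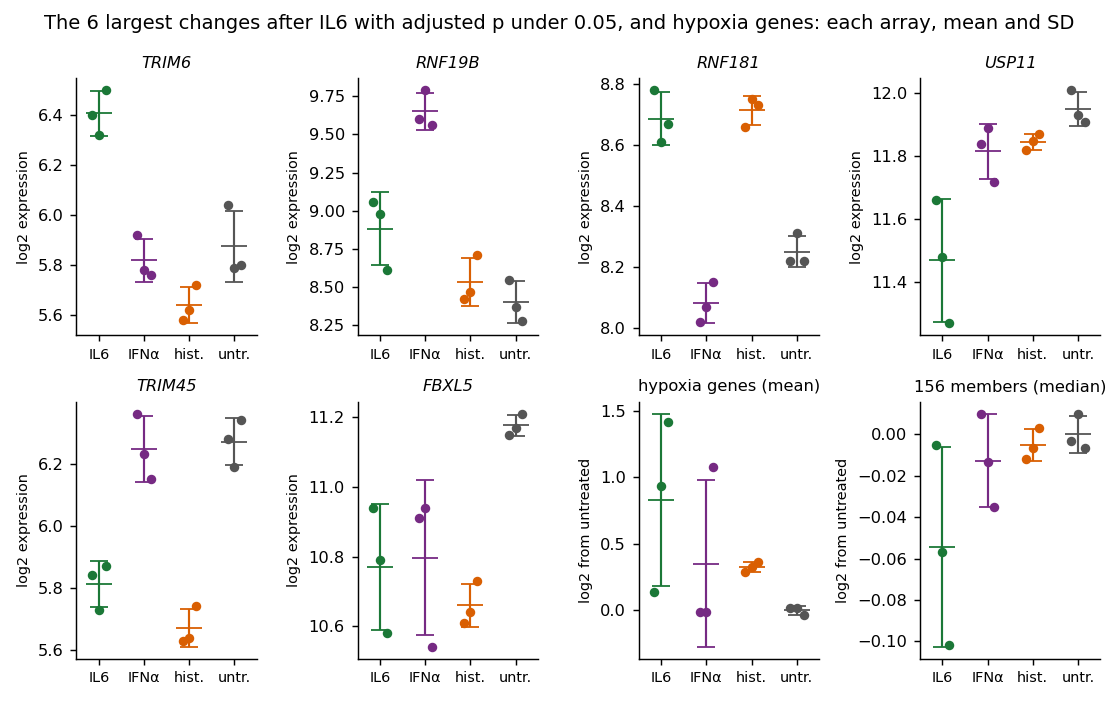
Values on each array (points) with mean and SD of 3 arrays, by treatment group (horizontal axis). The first 6 panels show log2 expression of the 6 genes with the largest changes after IL6 at an adjusted p under 0.05, all under 1.5-fold, and the last 2 show the mean of 12 hypoxia genes and the median of the 156 members relative to untreated cells, in which IL6 repeat 3 had 1.42 and -0.10.

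Both cytokines acted for 24 h, at 10 nM IL6 and 1 nM IFNα, and were compared directly: 2 members were higher and 10 lower with IL6 than with IFNα (limma), or 12 of 156, against 6.11% of all probe sets (2.82% higher, 3.29% lower). The 10 comprised the 9 genes that rose after IFNα and TRIM68. TRIM34 differed most, at 6.83, 6.63 and 6.67 on the IL6 arrays, against 9.69, 9.74 and 9.49 on the IFNα arrays (log2 difference -2.93, SE 0.08). TRIM68 read 7.68, 7.50 and 7.56 with IL6, against 8.38, 8.34 and 8.39 with IFNα (log2 difference -0.79, SE 0.07). From untreated cells it had a log2 change of -0.29 after IL6 (limma, adjusted p = 0.00884). With the hypoxia-marked arrays left out this change was -0.19, with IL6 repeat 1 as the lone IL6 array. RNF19B, which was higher than in untreated cells after either cytokine, was lower with IL6 than with IFNα by 0.77 on the log2 scale (SE 0.11; limma, adjusted p = 0.000115).

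RNF181 and TRIM6 were the genes higher with IL6. RNF181 read 8.78, 8.61 and 8.67 with IL6, against 8.02, 8.07 and 8.15 with IFNα (log2 difference 0.61, SE 0.06; limma, adjusted p = 2.57e-06). TRIM6 read 6.40, 6.32 and 6.50 with IL6, against 5.92, 5.78 and 5.76 with IFNα, a log2 difference of 0.59 (SE 0.09; limma, adjusted p = 0.000107). Both calls sat at the fold minimum: RNF181 had 0.56 without IL6 repeat 1 and 0.58 without IFNα repeat 1, and TRIM6 had 0.54 without IL6 repeat 3, 0.55 with the hypoxia-marked arrays left out, 0.57 without IFNα repeat 2 and 0.56 without IFNα repeat 3, all below the minimum.

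Histamine, which acts on chromaffin cells through a calcium-mobilising receptor, moved members by mostly small amounts at 6 h, much as it did the named genes. Changes stayed within 0.25 on the log2 scale for 66% of members and 67.4% of the named genes by their brightest probe sets. Limma called 8 of 156 members, 3 higher and 5 lower, against 5.7% of all probe sets (2.99% higher, 2.71% lower). At an adjusted p under 0.05 with no fold minimum 68 members (43.6%) differed, 29 higher and 39 lower, against 31.6% of all probe sets and 40.9% of the named genes. With each array centred on its median the split was 35 higher and 35 lower. The 8 called genes were OTULINL, TRIM52 and UBE2V2, which rose, and FBXW9, FBXO36, TRIM34, FBXL15 and TRIM45, which fell.

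OTULINL, a catalytically inactive relative of OTULIN at the endoplasmic reticulum, read 6.29, 6.18 and 6.25 with histamine, against 5.11, 5.03 and 5.02 untreated. It rose 2.28-fold (log2 change 1.19, SE 0.08; limma, adjusted p = 8.62e-08), and its untreated values lay at the lower quartile of the arrays. OTULIN, its neighbour in the RefSeq cattle table, stayed uncalled at 0.24. UBE2V2, an E2 variant without a catalytic cysteine that works with UBE2N to build lysine 63-linked chains, read 9.43, 9.50 and 9.50 with histamine, against 8.89, 8.88 and 8.80 untreated. It rose 1.54-fold (log2 change 0.62, SE 0.05; limma, adjusted p = 6.26e-07), and its other probe set was called with 0.72. UBE2N read 10.31, 10.26 and 9.89 with histamine, against 9.79, 9.82 and 9.78 untreated (log2 change 0.36, SE 0.09; limma, adjusted p = 0.00596), below the fold minimum. TRIM52 read 7.27, 7.30 and 7.42 with histamine, against 6.58, 6.86 and 6.65 untreated, and rose 1.55-fold (log2 change 0.63, SE 0.12). The TRIM52 call was lost without untreated repeat 1 (log2 change 0.58).

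FBXW9, a target-binding F-box protein with WD repeats, fell most: it read 6.69, 6.68 and 6.66 with histamine, against 7.52, 7.54 and 7.68 untreated. It fell by 0.90 on the log2 scale (SE 0.10; limma, adjusted p = 9.69e-06). FBXO36 read 5.48, 5.31 and 5.32 with histamine, against 6.14, 6.06 and 6.18 untreated, and fell by 0.76 (SE 0.10). FBXL15, the F-box protein for the ligase SMURF1, read 7.71, 7.83 and 7.88 with histamine, against 8.39, 8.62 and 8.48 untreated, and fell by 0.69 (SE 0.11). The histamine and untreated arrays did not overlap for any of these F-box genes. TRIM45 read 5.63, 5.64 and 5.74 with histamine, against 6.28, 6.19 and 6.34 untreated, and fell by 0.60 (SE 0.08). That call was lost after median centring, quantile normalization or cyclic loess (log2 change -0.57, -0.58 and -0.58) and without untreated repeat 3 or histamine repeat 1 (-0.56 and -0.58).

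TRIM34, which rose after IFNα, fell after histamine: it read 6.18, 6.17 and 6.17 with histamine, against 7.00, 6.92 and 6.81 untreated (log2 change -0.74, SE 0.08; limma, adjusted p = 6.55e-06). The 2 comparisons share the untreated arrays. Of the other genes that rose after IFNα, TRIM21 read 5.83, 5.75 and 5.70 with histamine, against 6.04, 6.19 and 6.17 untreated (log2 change -0.37; limma, adjusted p = 0.00205). TRIM38 had -0.27 (limma, adjusted p = 0.00299), below the fold minimum like TRIM21, while TRIM5, TRIM56, HERC6, RNF19B, FBXO33 and OTUD4 had log2 changes of -0.11, -0.01, 0.05, 0.13, 0.16 and 0.05 and adjusted p of 0.05 or more.

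**Figure D4:**
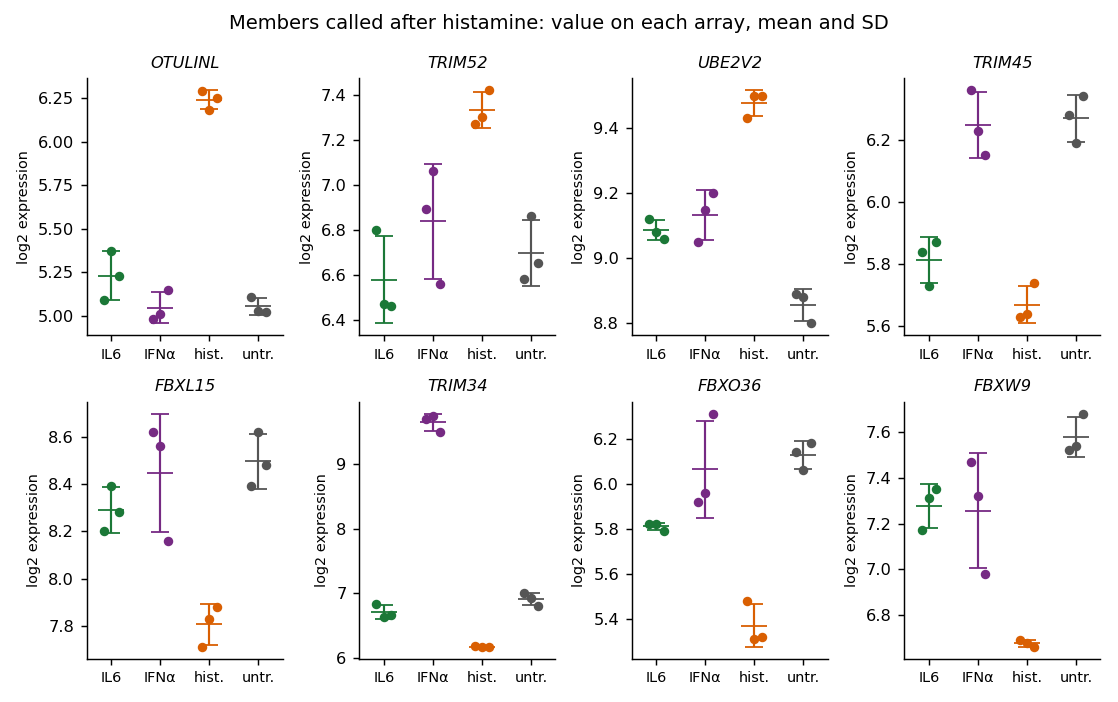
Log2 expression on each array (points, vertical axis) of the 8 genes called after histamine, by treatment group (horizontal axis: IL6, IFNα, histamine, untreated), with mean and SD of 3 arrays. The histamine arrays lie above all untreated arrays in OTULINL, TRIM52 and UBE2V2 and below them in the other 5.

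After histamine the counts in each direction were uneven in some enzyme classes. Among 25 E2 genes, 11 rose and 4 fell at an adjusted p under 0.05 with any fold, with a class median of 0.18. Of all probe sets 15.1% were higher and 16.4% lower, and of the named genes by their brightest probe sets 20.4% and 20.5%. Of 27 F-box genes 1 was higher and 12 lower, with a median of -0.17, and of 24 TRIM genes 2 were higher and 10 lower, with a median of -0.12. The RNF genes were split, with 8 of 40 higher and 9 lower, as were the USP genes, with 4 of 26 higher and 4 lower. The difference between classes itself was not tested. Across median centring, quantile normalization and cyclic loess the E2 genes had 11 to 13 higher and 4 or 5 lower and the F-box genes 2 higher and 12 lower.

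Among E2 genes higher after histamine were UBE2D2, a general partner of RING ligases (log2 change 0.49, SE 0.04; limma, adjusted p = 1.19e-06), UBE2E2 (0.50, SE 0.09) and UBE2K, which builds lysine 48-linked chains (0.41, SE 0.06). UBE2E2 read 7.56, 7.81 and 7.94 with histamine, against 7.23, 7.22 and 7.37 untreated, and was lower after IFNα (6.78, 6.89 and 6.73; log2 change -0.47; limma, adjusted p = 0.00229). UBE2H was the E2 gene with the lowest change after histamine (-0.41; limma, adjusted p = 3.52e-05), but its other, dimmer probe set had -0.01. Among F-box genes, FBXL5 (-0.52), FBXO15 (-0.47), FBXO7 (-0.47), FBXL20 (-0.45), FBXO25 (-0.45) and FBXL4 (-0.39) lay lower without reaching the fold minimum, and FBXL14 (0.32) was the F-box gene that was higher. Further, dimmer probe sets of these genes had smaller changes after histamine. They were -0.19 for FBXO15, -0.07 and 0.02 for FBXO7, -0.29 and -0.06 for FBXL20, -0.01 for FBXO25 and -0.36 for FBXL4. The deubiquitinase USP14, which sits on the proteasome, read 10.68, 10.63 and 10.54 with histamine, against 10.25, 10.24 and 10.30 untreated (log2 change 0.35, SE 0.05; limma, adjusted p = 0.000144). The other, dimmer USP14 probe set had -0.06. The E1 gene UBA2, a subunit of the SUMO-activating enzyme, had 0.43 (SE 0.06; limma, adjusted p = 5.35e-05), whereas UBA1, the main ubiquitin E1, had 0.11.

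**Figure D5:**
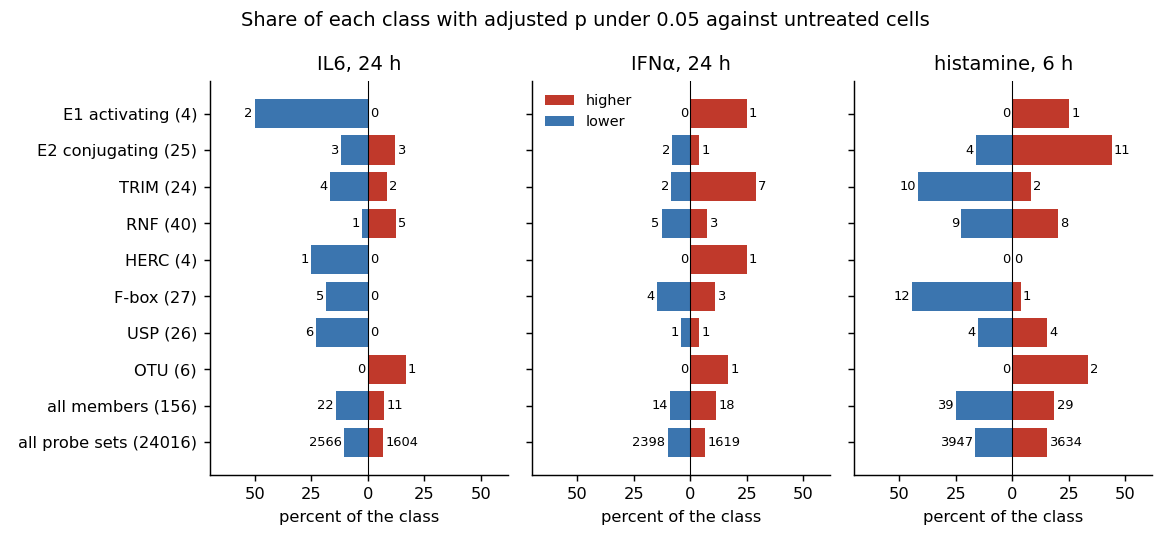
Percent of each enzyme class with an adjusted p under 0.05 against untreated cells (horizontal axis, higher to the right and lower to the left), by class (vertical axis, number of genes in brackets), with all members and all probe sets at the bottom. Numbers at the bars are counts: after histamine 11 E2 genes were higher and 4 lower, and 1 F-box gene was higher and 12 lower.

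RNF216, a RING-between-RING ligase, missed the fold minimum narrowly after histamine. It read 7.30, 7.37 and 7.53 with histamine, against 6.56, 7.07 and 6.85 untreated (log2 change 0.57, SE 0.16; limma, adjusted p = 0.015), and it was called without untreated repeat 2 (0.70), without untreated repeat 3 (0.59), without histamine repeat 1 (0.62), without histamine repeat 2 (0.59) and after median centring (0.60). RNF44 (-0.55, SE 0.05) and TRIM2 (-0.53, SE 0.05), a neuronal TRIM ligase, had small errors and stayed just short of the minimum, and both were called after quantile normalization (-0.59 each). Dimmer probe sets had 0.38 for RNF216 and -0.09 and -0.29 for TRIM2 after histamine, none of them called.

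Of the 156 genes, 44 had 52 further probe sets, and none of these was called in the opposite direction to the brightest in any comparison. Few of the 52 were called at all: 0 after IL6, 3 after IFNα, 2 after histamine and 2 for IL6 against IFNα. Opposite calls could thus hardly arise, and after IL6 they could not, so their absence does not show that probe sets agree. USP15 stood out by size: its brightest probe set had a log2 change of 0.17 after histamine (limma, adjusted p = 0.15), while the other read 7.45, 7.62 and 7.64 with histamine, against 6.29, 6.54 and 6.40 untreated, a called change of 1.16. Which transcripts these probe sets detect was not analysed here.

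The steadiest genes of each class were picked by their largest change after any treatment, so their small changes follow from that choice. UBE2B, an E2 enzyme of DNA damage tolerance, had log2 changes of 0.05, -0.01 and -0.02 after IL6, IFNα and histamine, and USP39, a splicing factor without deubiquitinase activity, had -0.06, 0.01 and -0.01. The other, dimmer UBE2B probe set had -0.52 after histamine (limma, adjusted p = 0.00845). The largest change was 0.06 for TRIM10, 0.06 for RNF185, 0.11 for UBA3, 0.15 for HERC4 and 0.16 for OTUB1. The muscle ligases TRIM54 and FBXO32 (atrogin-1) were not called: TRIM54, below the lower quartile of every array in untreated cells (4.63), had 0.02, 0.07 and 0.02 after the same treatments, and FBXO32 had -0.33, -0.26 and 0.17. Among genes of protein turnover with known roles in neurons, FBXW7 had -0.17, 0.28 and 0.12, TRIM9 had 0.09, -0.10 and -0.10, and USP8, which acts on endosomes, had -0.21, 0.11 and 0.01. The E2 enzymes of the anaphase-promoting complex, UBE2C and UBE2S, had log2 changes of -0.23 and 0.24 after IL6, 0.02 and 0.06 after IFNα and 0.19 and 0.16 after histamine, and neither was called. FBXO40 and TRIM9 lay, like TRIM54, below the lower quartile of the arrays, where a change could be missed. With the hypoxia-marked arrays left out, FBXO32 had -0.13 after IL6 and -0.15 after IFNα, FBXW7 had 0.17 after IFNα and UBE2S had 0.11 after IL6. TRIM9 then had 0.20 after IL6 and -0.23 after IFNα. Values this close to 0 do not show that a gene did not change.

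The ubiquitin pathway was also followed with 92 measured genes of 140 listed whose symbols lie outside the rule for members. They were set apart by symbol alone, so proteins of the same families under other names can be among them. Limma called 2 higher and 1 lower after IL6, 5 higher and none lower after IFNα, and 2 higher and 2 lower after histamine. Of all probe sets 2.39%, 3.36% and 5.7% were called in these comparisons, in the same order. The HECT ligase NEDD4L, which controls sodium channels, rose after IL6 (1.57-fold; 9.76, 9.65 and 9.63 with IL6, against 9.0, 9.10 and 8.98 untreated) and after histamine (1.83-fold; 9.93, 9.89 and 9.87 with histamine). MYLIP, a ligase for the LDL receptor, fell by 0.96 after IL6, with 7.65, 7.54 and 7.29 on the IL6 arrays, against 8.49, 8.34 and 8.52 on the untreated arrays. After IFNα the risers were ISG15, DTX3L (10.5-fold), the deubiquitinase ATXN3 (2.06-fold), BIRC3 (1.95-fold) and RBCK1. ATXN3 read 6.82, 6.91 and 6.78 with IFNα, against 5.76, 5.76 and 5.87 untreated. UCHL3, a deubiquitinase of another family, rose 1.66-fold after histamine, with 11.11, 11.10 and 11.11 on the histamine arrays, against 10.39, 10.41 and 10.33 on the untreated arrays, and DTX3L and ANAPC16 fell by 0.76 and 0.59. SOCS3, the other gene higher after IL6, is the substrate receptor of a cullin ligase and inhibits IL6 signalling. Of the 5 genes left out by the rule, limma called 4 higher after IFNα and 1, UBA7, lower after histamine (by 0.96).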

How the data were processed

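Affymetrix arrays were hybridised with total RNA of 12 samples. The deposited values are on a log2 scale, and the submitters' processing notes name RMA as what the authors ran, without a version; they ran from 2.88 to 14.14 and were tested as deposited. RMA shrinks changes of dim transcripts. No detection calls come with them. Their precision is that of 3 technical repeats per group.

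Leaving out 112 control probe sets, 24016 of 24128 were tested. The platform annotation gave a single symbol to 13292, several to 86 and none to 10638, and members were taken from the first kind. By gene identifier, 155 of the 156 members matched the RefSeq cattle table, which changed 0 symbols. Sequences were not used here.

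Groups came from the sample labels. The model, run with limma 3.58.1 (R 4.3.3), had a mean for each of the 4 groups and eBayes with its trend option; p-values were adjusted by Benjamini-Hochberg over all tested probe sets. SDs cover 3 arrays and SEs come from the model, which was tested on simulated data. The rule for named genes took all called members, the genes of 2 lists (interferon-induced, and muscle-atrophy, SCF, linear-ubiquitin and related genes) and up to 3 of the steadiest members per class. Other genes, including those under the fold minimum, were chosen after their values were seen. Members and lists were chosen with earlier results of these data known.

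Alternatives changed the fold minimum, the variance model, array weights, the normalization (3 others), the groups in the model, the probe set rule and the arrays included, dropped the dimmer 50% of probe sets, or added the repeat number as a block. Matplotlib 3.10.9 (Python 3.11.15) drew the figures.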

Additional observations from a re-analysis of the deposited data

How the results depend on the processing

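No called change of a member reversed in any alternative, and 735 of 772 repeats of single calls held, while 37 fell below the threshold. Part of this was fixed in advance. An adjusted p alone cannot lose a call, and leaving out an array of a group not compared leaves the log2 change as it was. The counts of called members (0 after IL6, 10 after IFNα, 8 after histamine, 12 for IL6 against IFNα) became 33, 32, 68 and 56 with an adjusted p alone. With a fold of at least 2, 1 was called after histamine and 6 for IL6 against IFNα. Treat against a fold of 1.2 called 15 after histamine, and 5 were called there without the dimmer 50% of probe sets, where FBXO36, OTULINL and TRIM45 were not tested. Without the 3 arrays with raised hypoxia genes, an alternative chosen with earlier results of these data known, 1 was called after IL6 (RNF19B). Leaving out each array in turn gave 0 to 1 calls after IL6, 9 to 11 after IFNα, 7 to 10 after histamine, 11 to 14 for IL6 against IFNα, and 91 to 110 members in the F test; where this leaves 1 array fewer in a group, the spread is pooled over all groups. With the repeat number as a replicate block the counts were 0, 11, 8 and 12, and 111 in the F test, against 102 without it. The repeat numbers were not taken as pairs in the main model. Deviations of same-numbered arrays of different groups correlated at -0.07 to 0.60, over 0.1 in 7 of 18 pairs. For differently numbered arrays the range was -0.61 to 0.37, over 0.1 in 3 of 36 pairs. Of 12 arrays, 9 correlated best with an array of their own number. Any structure shared by repeat number was thus left in the spread of the main model. Genes below the lower quartile of the arrays in untreated cells, such as HERC6, allow lower bounds of a rise only, and a fall there could not be seen.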
